A study of Mus musculus with 12 samples.

Results

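The cytosolic ribosomal protein genes, which encode the protein part of the ribosome outside mitochondria, were followed in RNA-seq libraries of mouse brain myeloid cells. Members were the protein-coding genes whose symbol gives a numbered large-subunit (Rpl) or small-subunit (Rps) protein, an acidic stalk protein (Rplp0, Rplp1 and Rplp2) or Rpsa. Ribosomal protein S6 kinases were not taken, and the pseudogenes Rpl6l and Rps4l, which match the same pattern, were left out. The rule found 84 members among 36528 gene identifiers, 52 of the large and 32 of the small subunit.

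The cells were sorted for the surface integrin Cd11b, which gathers microglia and can gather other macrophages, monocytes and granulocytes. All mice were males of 6 months of age. The P301S group (hMAPT-P301S, n = 6 libraries) carried human tau with a mutation known from inherited frontotemporal dementia, and the NonTg group (n = 6) was Non-Transgenic littermates. The sources used here name neither the promoter of the transgene nor the strain. Libraries carry their own identifiers but the labels do not say which mouse each came from, so the p-values reflect only how much these samples vary, which may be technical.

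Ribosomal proteins are made in matching amounts and are built into subunits in the nucleolus with ribosomal RNA. Their mRNAs belong to the TOP class, named for a terminal oligopyrimidine tract, a cytosine followed by further pyrimidines at the very start of the message. Through this tract the kinase mTORC1 and the RNA-binding protein Larp1 control when the mRNAs are translated and how long they are kept. In most cells these short mRNAs are among the most abundant, and many mammalian ribosomal protein genes have processed pseudogenes, copies of the mRNA inserted elsewhere in the genome.

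Ribosomal protein mRNA was higher in P301S as a whole, from a low level in both groups. All 84 genes together took well under 1% of the counts. Their share of all counts had a lowest, median and highest value of 0.0412%, 0.0513% and 0.0767% in NonTg and of 0.0683%, 0.0873% and 0.120% in P301S. The means were 0.0547% ± 0.0120 and 0.0896% ± 0.0200 (SD, n = 6 each), a ratio of 1.64. Summed CPM (counts scaled to library size with TMM factors, as for all CPM here) were 553 ± 111 in NonTg and 923.6 ± 140 in P301S (SD, n = 6 each). NonTg 1 had 772.0, the other 5 NonTg libraries had 458.5 to 550.9, and the P301S libraries had 770.2 to 1086. The groups thus overlapped through NonTg 1 alone, which lay just above the lowest P301S library. Without NonTg 1 the ratio of the shares was 1.78, and 3 members were called higher rather than 4. In a bulk sample, fewer cells of a type and less RNA per cell cannot be told apart, and this holds for every value here.

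A few genes gave most of these counts. The 84 genes held 6987 counts in the 6 NonTg libraries together and 15632 in the 6 P301S libraries, with 565 to 1902 and 1511 to 3334 counts per library. Rpl4 alone gave 18.4% of them and the 10 highest members 54.9%. Without Rpl4 the summed CPM were 456 ± 105 in NonTg (369 to 657) and 743 ± 107 in P301S (624 to 870; SD, n = 6 each). At least 1 count was found for 82 members, and none for Rpl10l, a copy known from testis, or Rpl3l, known from striated muscle. Only 35 members were counted in every library, and a single library detected 54 to 73 members in NonTg and 65 to 77 in P301S.

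Of the 82 members with a count, 63 (76.8%) had a higher mean CPM in P301S and 19 a lower one, whereas 40.1% of the 29308 genes with a count were higher. This count uses no filter. With no filter the median log2 fold change was 0.86 over these members and -0.25 over all genes with a count. The filter on low counts, at least 4.02 CPM in 6 libraries on a scale without TMM factors, left 33 members for testing among 10022 genes. It can be passed through the P301S libraries alone: Rps26 reached it in no NonTg library, and 6 other members, Rps19 among them, reached it in fewer than 3. The 33 are therefore a selected part of the members and their values a description. Of the 33, 29 had a positive log2 fold change and 4 a negative one, against 48.8% positive among all tested genes. Their log2 fold changes ran from -1.73 to 2.42 with a median of 1.02, against -0.02 for all tested genes. With a filter that ignores the groups, a mean of at least 10 counts, 36 members were kept, 31 were positive, the median was 1.03 and 3 rose, against 2.04% of all genes kept. Of the 49 members that had counts and were not tested, 34 had the higher mean in P301S and 15 in NonTg.

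Only a few of the tested members passed by themselves. With edgeR's quasi-likelihood test and Benjamini-Hochberg adjustment over all tested genes, 4 members rose in P301S: Rpl22, Rpl4, Rps15 and Rps26. Over all tested genes 2.37% rose and 1.5% fell. No member fell with edgeR, and 0 did with DESeq2; at an unadjusted p under 0.05, 13 were higher and 1, Rpl5, was lower, against 8.02% and 7.74% of all tested genes. DESeq2, which tested more of the low genes, called 10 members higher, where it called 3.03% of its genes: Rpl22, Rpl23, Rpl4, Rplp1, Rps15, Rps19, Rps20, Rps26, Rps3 and Rpsa. All P301S libraries lay above all NonTg libraries for 7 members, against 2.24% of tested genes. These were the 4 called genes with Rplp1, Rps20 and Rps19. For Rps26 the filter itself required this separation, on its scale without TMM factors, and Rps19 passed the filter in few NonTg libraries. No member lay wholly below (background 1.05%).

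**Figure D1:**
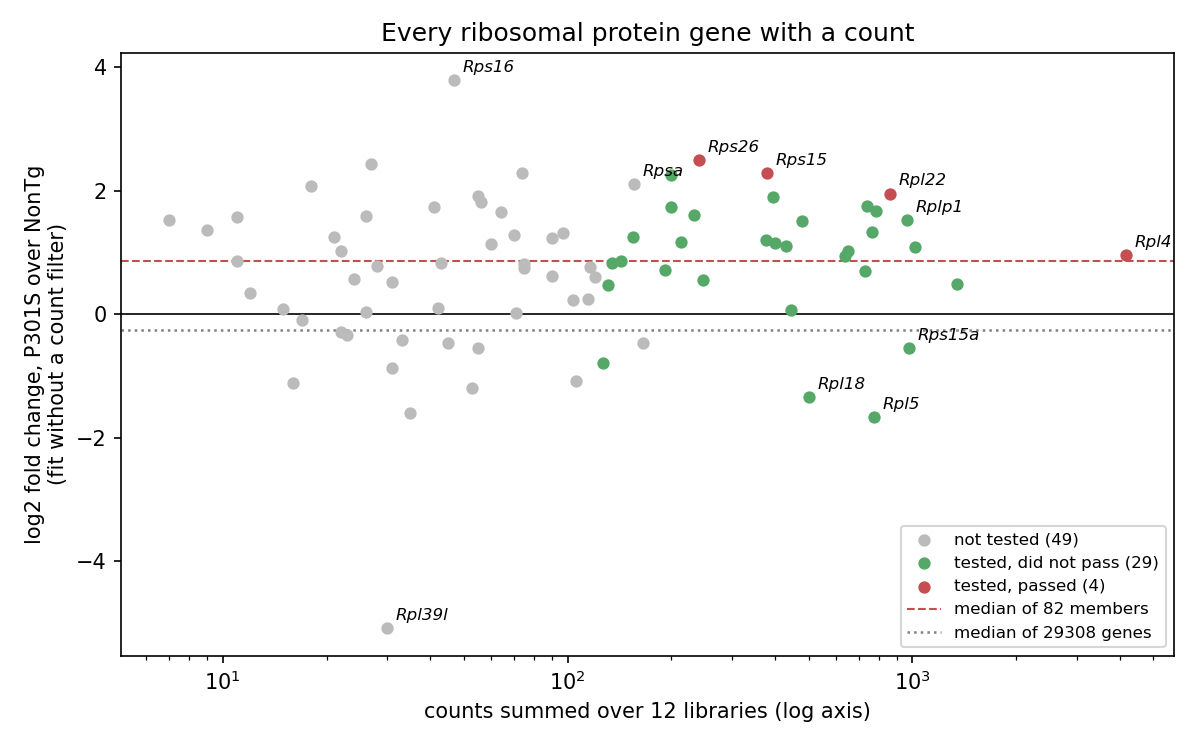
Log2 fold change of P301S over NonTg in the fit without a count filter (vertical axis) against counts summed over the 12 libraries (horizontal axis, log scale), 1 point for each of the 82 ribosomal protein genes with a count; colours mark the 49 not tested, the 29 tested that did not pass and the 4 that passed, by the filtered fit. The dashed line, the median of the 82 genes at 0.86, lies above the dotted line, the median of 29308 genes at -0.25, and the genes that passed are spread from low counts (Rps26) to the highest (Rpl4).

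Windows near the starts of the 4 genes that rose and of 2 that had lower means in P301S are shown, because ribosomal protein mRNAs are known to be regulated together through a pyrimidine tract at their start. Each line gives 30 bases of the coding strand 5′ to 3′ from RefSeq on GRCm38.p6. Capitals mark the longest run of pyrimidines that begins with C, the first where runs tie, from 20 bases before to 50 after an annotated start.
Rpl22: cagcgctgCTTCTggaatgttccagctccc
Rpl4: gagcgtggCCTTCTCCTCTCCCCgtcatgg
Rps15: agcccgtaCTTCCTTTTCCgagtaaccgcc
Rps26: cgccggatCCTCTTTCgagtcttggctcca
Rpl5: tacagccaCTCTTTCTCacgtcgcttgcgt
Rpl18: gcaggccgCTCTTTCCCCgcccactccggc
They lie at chr4:152324418-152324447 (plus strand) for Rpl22, chr9:64173405-64173434 (plus) for Rpl4, chr10:80292448-80292477 (plus) for Rps15 and chr10:128626481-128626510 (minus) for Rps26. The windows of Rpl5 and Rpl18 are chr5:107900500-107900529 (plus) and chr7:45718064-45718093 (plus). The runs are 5 bases long in Rpl22, 15 in Rpl4, 11 in Rps15, 8 in Rps26, 9 in Rpl5 and 10 in Rpl18. They begin at offsets from an annotated start of -10 in Rpl22, 26 in Rpl4, 25 in Rps15, 4 in Rps26, -20 in Rpl5 and 1 in Rpl18. The windows of Rpl4 and Rps15 thus lie wholly downstream of that start. For Rpl5 and Rpl18 the start used lies inside the gene span given below. The Rpl5 run itself begins at the first base of its gene span. In Rpl22 a second run of the same length, at the end of the line, is left in lower case. These are runs of letters, and whether they are the first bases of the mRNAs was not measured.

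Among large-subunit genes Rpl22 had the clearest difference. Rpl22 (Entrez 19934, chromosome 4, 152324436 to 152334082) encodes an RNA-binding protein of the subunit's surface that is known from T-cell development and has a paralog, Rpl22l1. Its lowest, median and highest CPM were 6.49, 10.8 and 17.7 in NonTg and 35.8, 40.6 and 52.8 in P301S. Every P301S library was at least at 35.8, far above the highest NonTg library. The mean rose from 11.2 ± 3.84 to 42.0 ± 6.32 CPM (SD, n = 6 each), from 146 to 717 counts in all. The log2 fold change was 1.89 ± 0.44 (SE; edgeR adjusted p = 0.0108), and the call held in each of 12 fits that left out 1 library, with adjusted p-values up to 0.0389. Its annotated span overlaps 9430083M05Rik, and reads of the overlap cannot be assigned by strand here.

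Rpl4 was the most abundant member. It (Entrez 67891, chromosome 9, 64173387 to 64178562) encodes a protein that reaches deep into the large subunit and lines the tunnel through which the new peptide leaves. Its lowest, median and highest CPM were 76.7, 96.0 and 121 in NonTg and 141, 170 and 271 in P301S. The groups were separated by the gap between 121 and 141, and P301S 4 stood highest. The mean rose from 97.3 ± 18.6 to 181 ± 47.7 CPM (SD, n = 6 each), a log2 fold change of 0.89 ± 0.24 (SE; edgeR adjusted p = 0.0352). The call was lost without NonTg 3 (0.0594), NonTg 5 (0.0687), NonTg 6 (0.0793), P301S 1 (0.0638), P301S 4 (0.0862) or P301S 5 (0.0636), as adjusted p-values of the same test.

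The small subunit gave the other 2 genes that rose, both from very low counts. Rps15 (Entrez 20054, chromosome 10, 80292431 to 80294114) encodes a protein of the subunit's head that is needed for the export of its precursor from the nucleus. Its lowest, median and highest CPM were 1.62, 3.84 and 5.70 in NonTg and 12.7, 19.0 and 26.6 in P301S, without overlap. The mean rose from 3.96 ± 1.41 to 18.8 ± 5.30 CPM (SD, n = 6 each), from 51 to 329 counts. The log2 fold change was 2.22 ± 0.62 (SE; edgeR adjusted p = 0.0388). The call was lost without NonTg 1 (0.0659), 3 (0.0528), 5 (0.0760) or 6 (0.0704), or without P301S 1 (0.0845), 3 (0.0559), 5 (0.0976) or 6 (0.0838), and the log2 fold change then stayed between 2.08 and 2.31.

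Rps26 (Entrez 27370, chromosome 10, 128624529 to 128626506) encodes a protein at the exit of the mRNA channel, and it is one of the genes mutated in Diamond-Blackfan anemia. Its lowest, median and highest CPM were 1.43, 2.13 and 4.06 in NonTg and 7.32, 12.7 and 18.6 in P301S. With no NonTg library past the filter, Rps26 could be tested only if all 6 P301S libraries passed. Its lack of overlap was thus set by the filter and is no separate result. The mean rose from 2.35 ± 0.975 to 12.8 ± 4.87 CPM (SD, n = 6 each), from 28 to 213 counts. The log2 fold change was 2.42 ± 0.69 (SE; edgeR adjusted p = 0.0451). Rps26 entered the test only through its P301S libraries, and its call was lost when any 1 of the 12 libraries was left out (adjusted p = 0.0560 without P301S 2 to 0.117 without P301S 1).

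The other 3 genes without overlap did not pass with edgeR. Rplp1, an acidic protein of the stalk that recruits elongation factors, had CPM of 10.6, 24.7, 16.4, 22.1, 7.3 and 17.98 in NonTg 1 to 6 and of 61.4, 31.5, 34.2, 69.7, 29.5 and 48.7 in P301S 1 to 6. The P301S libraries were spread over a wide range, and the lowest of them was above the highest NonTg library by a small margin. The log2 fold change was 1.46 ± 0.44 (SE; edgeR adjusted p = 0.0592, DESeq2 adjusted p = 0.00400). Rps20, of the subunit's head, had 4.1, 6.3, 9.1, 7.8, 4.1 and 4.0 CPM in NonTg and 21.5, 14.9, 13.8, 43.2, 15.9 and 16.6 in P301S. P301S 4 was high and the other 5 lay close together (log2 fold change 1.83 ± 0.59, SE; edgeR adjusted p = 0.0825, DESeq2 0.00302). Rps19, the gene most often mutated in Diamond-Blackfan anemia, had 2.4, 1.2, 4.6, 0.7, 3.2 and 2.1 CPM in NonTg and 10.9, 6.5, 14.3, 13.6, 11.7 and 7.6 in P301S. Its log2 fold change was 2.19 ± 0.71 (SE; edgeR adjusted p = 0.0849, DESeq2 0.00381).

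**Figure D2:**
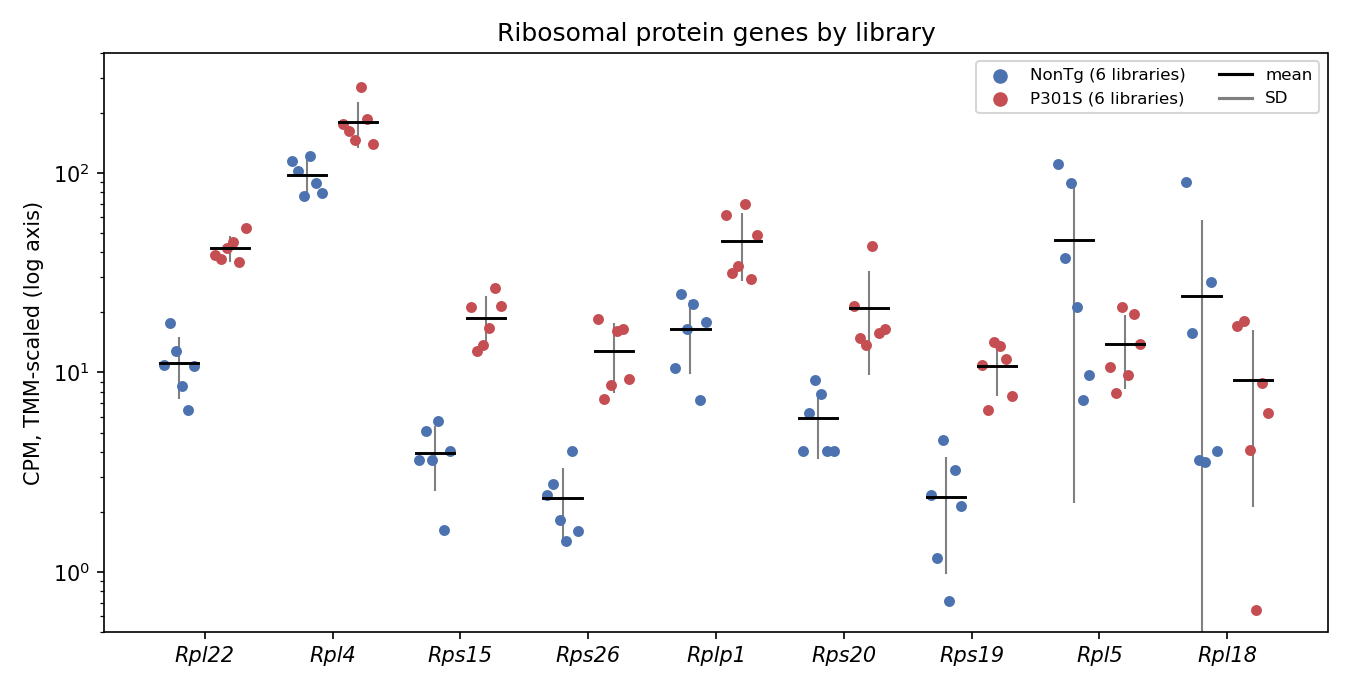
TMM-scaled CPM (log axis) of 9 ribosomal protein genes in each of 6 NonTg and 6 P301S libraries, with the mean and SD of each group; the SD bar of Rpl18 in NonTg runs below 0 and ends at the lower edge. The first 7 genes show no overlap between groups, whereas Rpl5 and Rpl18 overlap and their NonTg means rest on a few high libraries.

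Other abundant members had higher means in P301S and did not pass. Rpl32 had a mean of 11.6 ± 11.6 CPM in NonTg and 36.4 ± 14.8 in P301S (log2 fold change 1.63 ± 0.58, SE; edgeR adjusted p = 0.127); without NonTg 1 the log2 fold change was 2.25 and it passed (0.0338). Rpl13a, which also takes part in translational silencing of inflammatory mRNAs, had means of 20.8 ± 8.89 and 42.5 ± 18.3 (1.02 ± 0.47, 0.279). Rpl41, the smallest ribosomal protein, had 9.23 ± 3.47 and 18.5 ± 5.31 (1.01 ± 0.56, 0.397). Rps3, which sits at the entry of the mRNA channel, had 10.2 ± 6.13 and 33.7 ± 21.6 (1.70 ± 0.58, 0.102). Not every abundant member differed by much. The log2 fold change was 0.41 ± 0.39 for Rps24 (0.701), 0.62 ± 0.51 for Rpl8 (0.636) and 0.02 ± 0.70 for Rps25 (0.994). Rps24, Rpl8, Rps3 and Rps25 were chosen for these sentences after their values were seen.

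The 4 tested members with a lower mean in P301S were Rpl5, Rpl18, Rpl9 and Rps15a, and none passed. Rpl5 (chromosome 5, 107900508 to 107909005), whose protein joins the smallest ribosomal RNA of the large subunit and can bind Mdm2, had CPM of 111.2, 37.7, 89.5, 21.4, 7.3 and 9.7 in NonTg 1 to 6 and of 10.6, 7.9, 21.4, 9.7, 19.7 and 13.9 in P301S 1 to 6. The NonTg libraries 1 and 3 were high, while NonTg 4, 5 and 6 lay in the P301S range or below it. The means were 46.1 ± 43.9 and 13.8 ± 5.56 (SD, n = 6 each; log2 fold change -1.73 ± 0.57, SE; edgeR adjusted p = 0.0935), and without NonTg 1 the log2 fold change was -1.24 (0.325). Rpl18 (chromosome 7, 45715467 to 45720835) had 90.5, 15.7, 3.7, 3.6, 28.4 and 4.0 CPM in NonTg and 17.0, 18.2, 4.1, 0.6, 8.9 and 6.3 in P301S. Its mean in NonTg was set by NonTg 1: the log2 fold change was -1.39 ± 0.76 (SE; adjusted p = 0.397) with it and -0.24 without it (0.931). Rpl9 had means of 5.39 ± 4.74 and 3.19 ± 3.11 CPM (-0.83 ± 0.91, 0.750), and without NonTg 1 its log2 fold change was -0.36 (0.914). Rps15a had means of 34.4 ± 32.8 and 23.2 ± 6.17 CPM (-0.58 ± 0.51, 0.664). Rpl5 overlaps Dipk1a and Rpl18 overlaps Sphk2 in the annotation, and without strand their reads cannot be told apart from those of these neighbours.

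Among members too low to be tested, some had most of their counts in P301S. Rps16 had 2 counts in NonTg, all in 1 library, and 45 in P301S, spread over 5. Rpl38 had 10 and 64 counts. Rpsa, which was first described as a laminin receptor precursor, had 24 and 132 counts, or 1.86 ± 1.45 and 7.91 ± 3.15 CPM (SD, n = 6 each), and DESeq2 called it (log2 fold change 2.06, adjusted p = 0.0411). These 3 were chosen after their values were seen.

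The 7 paralogs of ribosomal proteins were all below the filter, and 5 had counts. The counts that follow are group totals, and the P301S libraries had the higher total depth on average. Rpl22l1, which can take the place of Rpl22, had 5 counts in NonTg and 10 in P301S, the latter in 2 libraries, or means of 0.542 ± 0.424 and 0.494 ± 0.769 CPM (SD, n = 6 each). It thus did not have the higher mean in P301S that Rpl22 had. Rpl7l1 had 83 and 82 counts (6.05 ± 9.42 and 4.27 ± 3.26 CPM), more than Rpl7 with 11 and 20 (0.880 and 1.26 CPM on average). Rps27l, a gene known to be induced by p53, had 19 and 23 counts (1.32 and 1.42 CPM), and Rps27 had 3 and 8. Rpl32l had 1 and 6. Rpl39l, known from testis, had 29 and 1 counts, and Rpl39 had 4 and 23. Of the 29 counts of Rpl39l, 27 were in NonTg 3, so its direction came from 1 library.

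Levels between genes were compared per length, on the deposited RPKM. The median over the 84 members was 0.656 RPKM, and it was 3.09 for the 33 tested members, against 1.49 for all tested genes. By group, the median over members was 0.565 RPKM in NonTg and 0.861 in P301S. Rpl4 was highest with a mean of 22.0 RPKM over all libraries, which placed it 217th of the 36528 identifiers. Rplp1 (14.98) and Rpl32 (10.7) followed, then Rpl13a (6.95) and Rpl41 (6.93). Only 3 members reached 10 RPKM and 34 reached 1, and 26 lay above the median of all tested genes. The members thus spanned a wide range of RPKM in these tables.

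Members with near-identical copies elsewhere had the lower RPKM at the median. Only uniquely aligned reads were counted, per the file headers, so a gene with near-identical copies can be undercounted, and every level here is uncertain to that degree. As a measure, all stretches of 50 bases of each member's GENCODE M21 transcripts were looked up in all other genes' transcripts, annotated pseudogenes included. The sources used here do not give the read length, so 50 is an arbitrary choice. Of 83 members with a value, the median share of stretches found in no other gene was 64.1%. The 28 members below 50% had a median of 0.514 RPKM and the 55 others 0.822. Rpl5 had 14.6%. Of the 26 tested members with at least 50% unique stretches 23 were positive, with a median log2 fold change of 1.05, and of the 7 below 50% 6 were positive, with a median of 0.77. All 4 genes that rose were in the first set. The share of reads lost to copies was not measured.

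**Figure D3:**
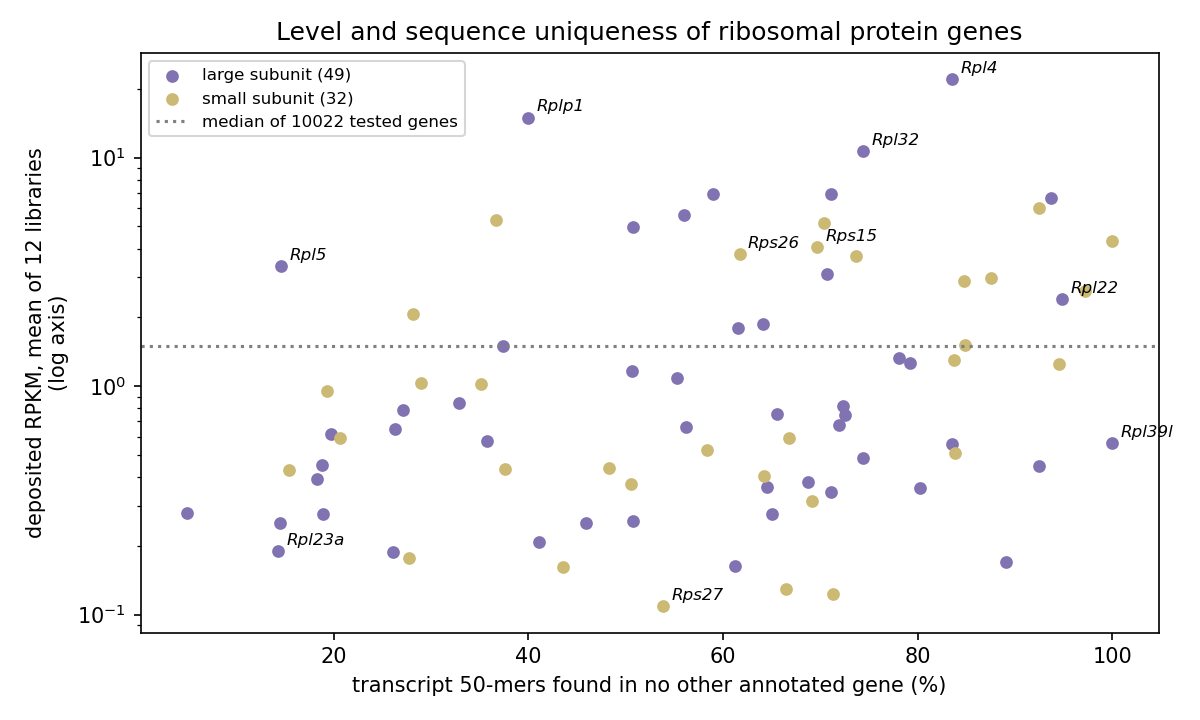
Mean deposited RPKM over all 12 libraries (vertical axis, log scale) against the share of 50-base stretches found in no other gene (horizontal axis, percent), 1 point for each ribosomal protein gene with a value on both axes, in colours for the large and the small subunit; the dotted line is the median of all tested genes. The 28 genes below 50% have a median of 0.514 RPKM and the 55 others 0.822, and both sets hold low genes. Of these 55, only the 53 with a count are drawn.

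The common direction was spread over the subgroups of members. In the large subunit 16 of 19 tested members were positive, 2 rose, and the median log2 fold change was 0.96. In the small subunit 13 of 14 were positive, 2 rose, and the median was 1.39. Members with no pseudogene named after them were positive in 10 of 10 (median 1.13), those with 1 to 4 in 15 of 17 (0.96), and those with 5 or more in 4 of 6 (1.10). Many ribosomal protein genes host small nucleolar RNA genes in their introns. Members with such a gene inside were positive in 12 of 13 (median 1.02), and the others in 17 of 20 (1.06). These sets differ in size and share libraries, and no difference between them was tested.

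Members were also split by the length of their gene models. Model lengths were estimated from the ratio of deposited RPKM to count and are approximate. Of 7 tested members with a model over 1500 bases (Rpl18, Rpl22, Rpl3, Rpl5, Rps15a, Rps24 and Rps3), 4 were positive and the median log2 fold change was 0.41. Of the 26 shorter ones 25 were positive, with a median of 1.10. Of 6 tested members that overlap another gene (Rpl18, Rpl22, Rpl32, Rpl5, Rps20 and Rps25), 4 were positive (median 0.82), against 25 of 27 without an overlap (median 1.02). Both splits were chosen after the data were seen, and no difference between the sets was tested. Whether reads from retained introns or neighbouring genes contribute to the long models was not tested.

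Promoter windows of 250 bases before to 50 after the RefSeq start were found for 64 of the 84 members. A pyrimidine run of at least 8 bases that begins with C, on the coding strand and from 20 before to 50 after any annotated start of the gene, was present in 49 members (76.6%) and in 22.7% of 27025 genes. Of 19 tested members with the run 15 were positive (median log2 fold change 0.96, 3 rose), and of 5 without it 5 were positive (median 1.46, 1 rose). The letters CCGGAAG, a core bound by ETS-family factors, were found on either strand of the whole window in 26 members (40.6%) and in 9.93% of all genes. Tested members with it were positive in 7 of 7 and those without it in 13 of 17. A match of letters is a description of the window and shows no binding.

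Proteins of the ribosome outside the symbol rule were too low to test except Rack1, a scaffold of the small subunit. Rack1 had means of 34.8 CPM in NonTg and 78.0 in P301S (log2 fold change 1.15 ± 0.40, SE; edgeR adjusted p = 0.115). Fau, Rpl36al and Rps27rt had at most 28 counts in a group. A list of other genes with TOP mRNAs, translation factors with some genes of other roles such as Vim, Hnrnpa1 and Npm1, shared the direction in part: 2 of 16 tested rose, 0 fell, 12 were positive and the median was 0.76. Over all tested genes 2.37% rose, 1.5% fell and 48.8% were positive. Eef2, which moves the ribosome along the mRNA, rose from 112 ± 28.02 to 428 ± 186 CPM (SD, n = 6 each; log2 fold change 1.92 ± 0.27, SE; adjusted p = 2.51e-05). Eef1a1, which delivers the aminoacyl-tRNA, rose from 104 ± 31.4 to 291 ± 76.4 CPM (1.48 ± 0.24, 2.58e-04). The poly(A)-binding protein gene Pabpc1 (0.95 ± 0.28, 0.0531) and Vim, encoding vimentin (2.21 ± 0.68, 0.0664), did not pass.

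Genes that control TOP mRNAs had little common shift. Over all tested genes 2.37% rose and 1.5% fell, and at an unadjusted edgeR p under 0.05, 8.02% were higher and 7.74% lower. Of 16 tested genes of this control list 1 rose and 0 fell, with a median log2 fold change of 0.10 and 3 genes at an unadjusted p under 0.05. The 1 was Larp1, which binds the cap and the tract, from 141 ± 29.7 to 243 ± 55.6 CPM (SD, n = 6 each; log2 fold change 0.79 ± 0.22, SE; edgeR adjusted p = 0.0433). Tia1, another TOP-binding protein gene, had -1.08 (0.0732), Eif4e 1.52 (0.313) and Cnbp -0.67 (0.328).

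Genes that build ribosomes, and those of the mitochondrial ribosome, had medians close to 0. Over all tested genes edgeR called 2.37% higher and 1.5% lower, and DESeq2 called 1032 of its 15759 genes in either direction. At an unadjusted edgeR p under 0.05, 8.02% of all tested genes were higher and 7.74% lower. Of 43 tested genes of ribosome assembly and RNA polymerase I, 0 passed with edgeR, 6 had an unadjusted p under 0.05, DESeq2 called 1, and the median log2 fold change was -0.07. The smallest p-values were those of the assembly factor Nol6 (2.01 ± 0.67, SE; edgeR adjusted p = 0.0958), the transcription factor Myc (0.83, 0.159), Rrp1b (-0.77, 0.208) and Rrp1 (0.93, 0.235). Of 78 mitochondrial ribosomal protein genes 29 were tested and 0 passed with edgeR, 2 had an unadjusted p under 0.05, DESeq2 called 2, and the median was -0.16. Mrpl13 had -2.61 ± 0.85 (SE; 0.0843), Mrps25 -0.77 (0.296), Mrpl58 1.58 (0.457) and Mrps7 -0.86 (0.521). The lists differ in abundance and length as well, and no difference between lists was tested.

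**Figure D4:**
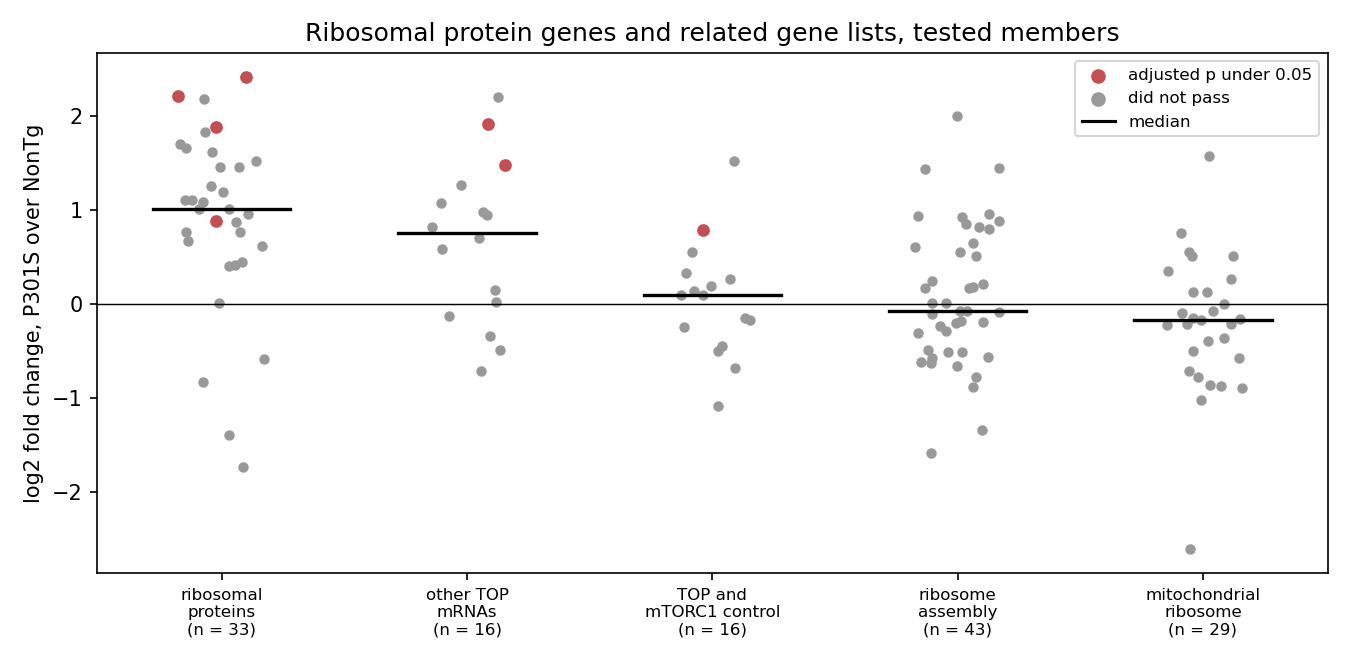
Log2 fold change of P301S against NonTg for each tested gene of the ribosomal protein genes and of the related lists, with a bar at the median of each and red points for genes with an adjusted p under 0.05. The medians are 1.02 for the cytosolic ribosomal proteins, 0.76 for other genes with TOP mRNAs, 0.10 for TOP control, -0.07 for assembly and RNA polymerase I, and -0.16 for mitochondrial ribosomal proteins.

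Of the 12 measures of the libraries, the Malat1 share and the summed CPM of microglial markers were lower in P301S. Total counts, the mitochondrial share and the summed CPM of the other marker lists did not pass. Total counts per library were 1196069 to 4145069, with a median of 2488085. Mitochondrial genes took 10.0% to 19.2% of counts in NonTg and 14.97% to 32.1% in P301S (two-sided exact permutation p = 0.0195, adjusted p = 0.0779 over 12 measures). P301S 1, with the lowest mitochondrial share of its group, had the highest ribosomal protein share, 0.120%, and P301S 3, with 30.8%, had the lowest of its group, 0.0683%. P301S 4, with the highest mitochondrial share, 32.1%, had a ribosomal protein share of 0.0841% and the highest summed CPM, 1086. Mitochondrial counts are part of the total that these shares are taken from. Malat1, a nuclear RNA, took 12.4% to 19.2% in NonTg and 7.82% to 10.6% in P301S (exact permutation adjusted p = 0.0130). With the mitochondrial share as a covariate, added after seeing the data, 0 members passed with edgeR. At an unadjusted p under 0.05, 8 were higher, and 29 of 33 were positive. The shares of all genes at these 2 marks in that fit are not given here, so the counts have no background. The fit called 267 genes, 48.3% of them higher, and its median log2 fold change was 1.14 over members and -0.07 over all tested genes. In that fit Rpl22 had a log2 fold change of 2.00 (adjusted p = 0.0697), Rpl4 0.67 (0.360), Rps15 2.48 (0.101) and Rps26 2.60 (0.123). The part of mitochondrial share, nuclear RNA or RNA quality in the higher ribosomal protein counts was not tested.

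Markers of microglia were abundant in both groups. All 10 microglial markers were tested, and 5 fell and 0 rose. Over all tested genes 2.37% rose and 1.5% fell. The summed CPM of the microglial markers was 11035 to 14717 in NonTg and 5738 to 7793 in P301S (exact permutation adjusted p = 0.0130 over 12 measures). Of 12 genes of the disease-associated microglial state, 10 rose and 0 fell, with a median log2 fold change of 4.28. The summed CPM of other cell types overlapped between groups: 11.8 to 74.9 in NonTg and 20.6 to 50.3 in P301S for border macrophages, 17.8 to 73.0 and 7.93 to 64.5 for monocytes, 0.914 to 74.7 and 1.61 to 27.0 for neutrophils, and 0 to 32.9 and 0 to 11.4 for lymphocytes. For brain cells they were 72.2 to 172 and 25.6 to 155 for neurons, 125 to 699 and 154 to 712 for astrocytes, 200 to 289 and 190 to 494 for oligodendrocytes, and 8.12 to 109 and 26.5 to 82.1 for endothelium. Few markers of these lists were tested: 3 of border macrophages, 2 of monocytes, 1 of neutrophils and 0 of lymphocytes. For brain cells 2 of neurons, 6 of astrocytes, 5 of oligodendrocytes and 2 of endothelium were tested. Among these tested markers only the astrocyte gene Gfap and the endothelial gene Flt1 rose, and none fell. Of the tested astrocyte markers 2 were positive and 4 negative, and of the endothelial ones 1 was positive and 1 negative. Of the defining markers, Nkg7 of cytotoxic lymphocytes and Cldn5 of endothelium had no count. The part of other cells, or of the change of microglial state, in the ribosomal protein counts was not tested.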

How the data were processed

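RNA-seq was deposited as 1 table per library, 12 in all. Per the file headers, the count column gives reads uniquely aligned to each gene model, and the second column gives RPKM, which the authors had adjusted with per-sample size factors. Per the submitters' processing notes, GSNAP and GRCm38 were used; the sources used here do not give the version, counter, annotation release or strandedness. Gene symbols were matched to a RefSeq table of GRCm38.p6 for 31049 of 36528 identifiers (85.0%).

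The members and gene lists were chosen with earlier results of these data known. Groups came from the genotype label; replicate numbers follow record order and pair nothing. No within-group pair of the 30 agreed within sampling noise (chi-square at least 18.2 per degree of freedom, genes with at least 20 counts). Depth was 1196069 to 4145069 counts; without molecular identifiers, counts carry amplification error too.

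Counts were filtered with filterByExpr (minimum count 10), scaled by TMM and tested with edgeR 4.0.16 (R 4.3.3; quasi-likelihood, robust, Benjamini-Hochberg over 10022 genes, threshold 0.05). The code was tested on simulated data. Log2 fold changes are P301S minus NonTg. Library measures were compared by exact permutation. Alternatives were other scalings and filters, DESeq2 1.42.0, voom of limma 3.58.1, log2(RPKM + 1) and log2(RPKM + 0.1), leaving out each library and, added after seeing the data, a mitochondrial covariate. Splits by model length, gene overlap and 50-base uniqueness, the CCGGAAG search, and the window and minimum length of the pyrimidine run were also chosen after seeing the data. Named genes were members called, the 8 with the smallest p, the 5 highest by RPKM, the 3 most negative, paralog pairs, members without overlap between groups, and up to 4 genes per pathway list by p; others are said to be chosen later. Values of a few single genes are not reported here.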

Additional observations from a re-analysis of the deposited data

Results flagged for a closer look

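Of 44 groups of 6 libraries checked for a sample far from the others, 10 had one. The cutoff gives about 1 in 20 by chance for normally spread values in separate groups. Low counts are not spread in that way, and the summed CPM contains the single genes. The number flagged is therefore a description and no measure of an excess. Rpl18 had 90.5 CPM in NonTg 1, where the next library had 28.4. Rpl7l1 had 24.8 CPM in NonTg 1, where the next had 6.41, and Rps27 had 0.812 in NonTg 1, where the next had 0.268. The summed CPM of the 84 ribosomal protein genes was 772.0 in NonTg 1, and the next NonTg library had 550.9. NonTg 1 thus gave 4 of the 10, though its Rps27 value rests on very few reads and the summed CPM contains the other genes. Rpl39l had 24.7 CPM in NonTg 3, where the next had 0.537. Rpl13a stood low in NonTg 4, at 3.56 CPM, where the next had 21.01. Rpl4 had 271 CPM in P301S 4, where the next had 187, and Rps20 had 43.2 in P301S 4, where the next had 21.5. Rpl32l had 0.392 CPM in NonTg 2, and Rpl39l had 0.321 in P301S 1, each with 0 in the other libraries of its group, so both rest on very few reads.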

How the results depend on the processing

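No paired analysis was possible because the labels carry no replicate numbers. The median log2 fold change of the tested members was between 0.87 and 1.14 in the alternatives run. It was taken over members that the main filter had kept, so it does not show how that choice of members affects it. In the fit without a filter it was 1.10 for them and 0.86 over all 82 members with a count. The ratio of the shares of counts was 1.53 to 1.78 when 1 library was left out and 1.74 without mitochondrial genes and Malat1, and the same ratio was 1.67 for summed CPM and 1.96 for summed RPKM. Members called higher, 4 as reported, were 10 with DESeq2, 9 with RPKM plus 0.1, 10 with RPKM plus 1, 2 without a filter, 1 with total count scaling, 0 with the mitochondrial covariate, and 1 to 3 when 1 library was left out. Members called lower, 0 as reported, were 1 without a filter (Rpl5, log2 fold change -1.67, adjusted p = 0.0357) and 0 when 1 library was left out. As background to these member counts, genes called in all were 388 of 10022 as reported, 1032 of 15759 with DESeq2 and 1063 of 29308 without a filter. They were 406 with RPKM plus 0.1, 404 with RPKM plus 1, 355 with total count scaling and 267 with the covariate. When 1 library was left out they were 273 to 386. Of the genes called, 61.3% were higher as reported, 46.2% with DESeq2, 38.7% without a filter and 48.3% with the covariate. The share was 68.7% with RPKM plus 0.1, 68.6% with RPKM plus 1 and 54.4% with total count scaling. The cause of these differences was not tested. Of the genes that rose, Rpl22 lost its call with the covariate alone. Rps15 and Rps26 also lost theirs without a filter, with voom and with total count scaling, Rps26 with each other filter and without mitochondrial genes and Malat1, and Rpl4 with total count scaling. No alternative turned the direction of the 13 members run through them; genes of the other lists and the paralogs were not. Most members had too few counts for a test.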

Other observations

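Rows named as pseudogenes of ribosomal proteins were counted as well. The 26 such rows held 404 counts in NonTg and 780 in P301S, with summed CPM of 27.4 ± 14.5 (4.87 to 45.1) and 43.5 ± 18.5 (23.4 to 74.3; SD, n = 6 each), so the groups overlapped. Rps15a-ps6 had 235 counts over all libraries, Rpl14-ps1 had 230 and Rplp2-ps1 had 112. With unique alignment only, such a row can hold reads of its parent gene and the reverse, and this was not tested.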
